A study of Mus musculus with 16 samples.

Results

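The comparison set 1 fibroblast line from mammary hyperplasia, HpAF1, against the lines NF2 and NF3 from normal mammary gland. It was chosen by sample label and took 6 arrays of 16, and 3 lines of 8: 2 cultures of HpAF1 and 4 cultures of normal lines, with 1 array per culture. All mice were of the FVB/N strain. HpAF1 came from a hyperplastic lesion of the MMTV-PyMT model, in which a viral promoter active in mammary epithelium drives the polyoma middle T oncogene; NF2 and NF3 came from normal gland. Every line, normal ones included, carries the E6 gene of human papillomavirus for immortalization, was grown without treatment for 72 h in DMEM with 10% FBS on a soft gel of Matrigel and collagen I, and was hybridised as biotin-labelled cRNA to Illumina bead arrays. Hyperplasia is represented by 1 line, so the stage of the lesion and the identity or history of that line cannot be told apart. The labels do not say whether each line had a mouse of its own, or how arrays were grouped on chips and in labelling rounds.

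Fibroblasts lay down and remodel the collagen matrix around the mammary ducts, anchor themselves to it through integrins and a contractile actin cytoskeleton, and send growth factors to the epithelium. When danger signals or cytokines activate the transcription factors NF-kappaB and C/EBP, they can shift to an inflammatory state with acute-phase proteins, chemokines and matrix-degrading enzymes. Transcription factors such as the HOX and GATA proteins keep a record of the body region and lineage that a fibroblast came from.

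Values are normalized log2 intensities after background correction, differences are in log2 units, and a level is only compared with the same probe on other arrays. A probe is called detected on an array at a detection p under 0.01. The lowest signal among detected probes lay between 5.80 and 6.77 on the 6 arrays, so readings around 5 are below detection. Detected probes numbered from 7445 (NF3 culture 2) to 9600 (NF2 culture 1) of 25697. Across tested probes, which are not independent replicates, the HpAF1 cultures correlated at 0.992, those of NF2 at 0.9532 and those of NF3 at 0.9363. An NF2 with an NF3 array correlated between 0.9425 and 0.9625, and a normal with an HpAF1 array between 0.905 and 0.924.

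Compared with both normal lines, HpAF1 had higher levels of many innate defence genes and of several matrix metalloproteinases, and lower levels of basement membrane collagens and collagen-processing enzymes. These calls rest on cultures: of the acute-phase, NF-kappaB, metalloproteinase, basement membrane and collagen modification lists, 0 members passed the stricter comparison over lines. A gene is called apart when HpAF1 differed from NF2 and from NF3 in the same direction, each at an adjusted p under 0.05 in limma with cultures as replicates. Of 7454 genes, 593 were apart (7.96%), 324 higher (4.35%) and 269 lower (3.61%) in HpAF1. In 138 genes, 79 higher and 59 lower, the difference from each normal line was at least 2. The normal lines differed from each other in 11 genes (0.148%). Cultures of 1 normal line correlated no better than the closest pairs across the lines, so this count does not show that the lines are alike. The median difference between HpAF1 and the normal mean over all tested genes was -0.02, and 48.6% of genes were higher. These p-values measure the spread between cultures of a line only, which may be technical. Of the 804 probes apart (7.69%), 294 were called without HpAF1 culture 1 and 253 without culture 2, when the lone culture was assumed to vary like the others; 292 and 252 of these were among the 804. The 15 probes (0.143%) that differed between NF3 and NF2 became 51 without NF2 culture 1, 28 without NF2 culture 2, 158 without NF3 culture 1, 43 without NF3 culture 2 and 8 without either HpAF1 culture.

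**Figure D1:**
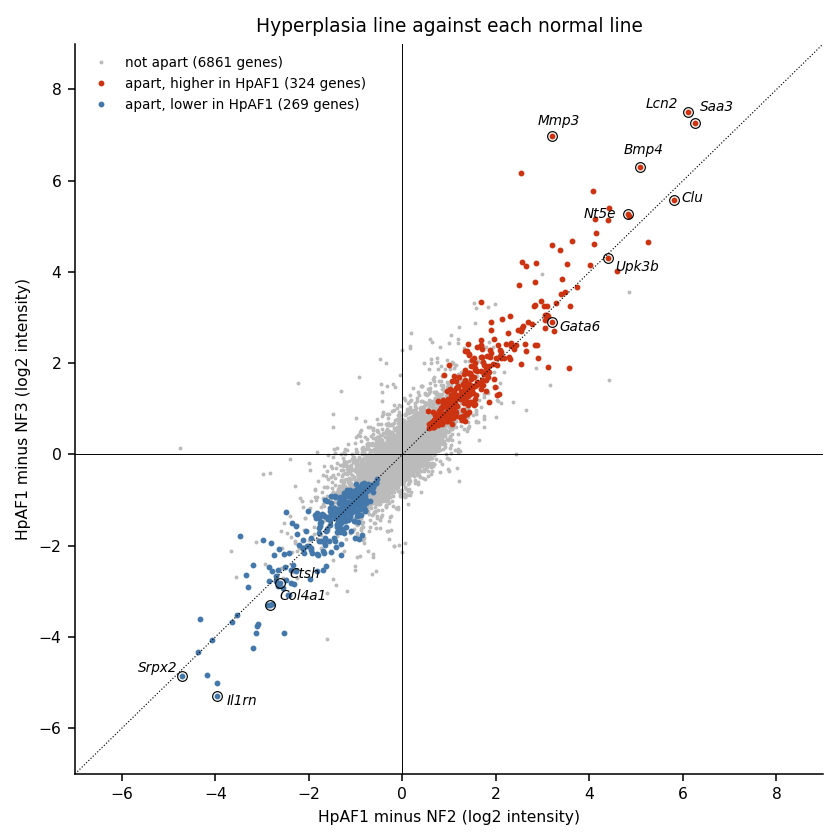
Each point is 1 of 7454 genes, with the difference of HpAF1 from NF2 on the horizontal axis and from NF3 on the vertical axis, both as log2 intensity. Red points mark the 324 genes apart and higher, blue points the 269 genes apart and lower, and the dotted line marks equal differences. Since both axes share the HpAF1 cultures, points spread along that line whatever the normal lines do.

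The stricter comparison took lines as replicates, with the spread of the single HpAF1 line borrowed from the normal and carcinoma lines. It passed 34 probes (0.325%) and 24 genes (0.322%), 19 higher (0.255%) and 5 lower (0.0671%), at an adjusted p under 0.05. Of the 24 genes, 13 were detected on the HpAF1 arrays and on none of the other 14, so that they entered the test only through HpAF1 and their spread between other lines is that of readings below detection. They are given as values and bounds, and among probes detected on 4 or more of the 16 arrays 0 passed, in place of 34. Nudt11, a phosphatase of inositol pyrophosphates, read 4.82 and 5.00 in NF2, 5.11 and 4.86 in NF3, and 8.67 and 8.63 in HpAF1, which made it at least 4.60-fold higher. Prkcb, the beta form of protein kinase C, read 4.75, 4.76, 4.83 and 4.67 in the normal cultures and 8.00 and 7.63 in HpAF1, at least 2.57-fold higher. Ednrb, the endothelin receptor B, was at least 2.65-fold higher, Ppp1r9a, the actin-binding scaffold neurabin, at least 2.76-fold and Cdh26, a cadherin, at least 1.76-fold. Gdpd2, a glycerophosphodiester phosphodiesterase, stood at 8.81 and 8.74 in HpAF1 against 4.80 to 6.74 in the normal cultures, a difference of 3.16 (SE 0.28, limma adjusted p = 0.0125), and was detected on 1 normal array. A bound of this kind is the HpAF1 mean set against the lowest detected signal of the normal arrays, and is smaller than the measured difference. The 5 lower genes were Ctsh, Srpx2, Kdelr3, Efs and Chst1, each detected on all 4 normal arrays. Ctsh differed from the normal mean by -2.71 (SE 0.25, limma adjusted p = 0.0128) and Kdelr3 by -2.03 (SE 0.24, adjusted p = 0.0301). Srpx2 differed by -4.71 from NF2 and by -4.86 from NF3. Efs and Chst1 were detected on neither HpAF1 array. Without NF2 the count of probes that passed over lines was 3 in place of 34, without NF3 it was 0, without CAF1 82, without CAF3 13 and without CAF4 16.

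Genes of the NF-kappaB and Toll-like receptor pathway were often higher in HpAF1. Of 18 members tested, 8 were apart and higher and 1 was apart and lower, against 7.96% of all genes apart, and the median difference was 1.04. Without HpAF1 culture 1 or culture 2, 5 members remained apart in each case, and 5 without NF2 culture 1. Icam1, the adhesion receptor that leukocytes bind, read 6.66 and 6.20 in NF2, 5.68 and 5.75 in NF3, and 10.65 and 10.48 in HpAF1. The groups lay far apart, with differences of 4.13 from NF2 and 4.85 from NF3 (SE 0.34 each, limma adjusted p = 1.89e-05 and 3.9e-06). Tlr2, which senses bacterial lipoproteins, stood at 7.91 and 6.85 in NF2, 7.72 and 6.78 in NF3, and 9.50 and 9.90 in HpAF1, a difference of 2.39 from the normal mean. Nfkbiz, a nuclear partner of NF-kappaB that switches on secondary response genes, read 9.60, 9.10, 8.77 and 8.73 in the normal cultures and 10.97 and 11.13 in HpAF1. Sod2, the mitochondrial superoxide dismutase, was between 9.82 and 10.15 in all normal cultures and at 11.87 and 11.93 in HpAF1. None of these 4 genes overlapped between the groups, as was so for 19.8% of all tested genes on the higher side and 20.2% on the lower side.

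Inhibitors of the pathway were among the genes apart. Nfkbia, the inhibitor that holds NF-kappaB in the cytoplasm and is itself an NF-kappaB target, read 8.32 and 9.07 in NF2, 8.91 and 8.49 in NF3, and 9.94 and 9.92 in HpAF1. It differed by 1.23 from each normal line (SE 0.35, adjusted p = 0.0403 and 0.0391), and was called in 5 of 12 alternative settings. The other 3 higher members are named after their values were seen. Relb, a subunit of the non-canonical pathway, stood 1.39 above the normal mean and Zc3h12a, an RNase that degrades cytokine mRNA, 1.14 above it, while Tnfaip3, the A20 deubiquitinase, was below detection on all 6 arrays. Tnfaip2 was the member apart on the lower side, at 10.96, 10.75, 11.15 and 10.22 in the normal cultures against 9.66 and 9.31 in HpAF1. Rela, the main transactivating subunit, also named after its values were seen, differed by 0.07.

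Promoter windows were searched for 4 motifs in the genes apart of 26 lists, and those of this group are shown for the NF-kappaB consensus. Windows cover the 250 bases before each RefSeq transcription start (GRCm38.p6), and motifs were searched on both strands. Of the 8 higher members, 6 had a window, and 4 of these held the consensus: Nfkbia, Sod2, Tlr2 and Tnfaip3. The consensus stood in 3.90% of all 32851 windows and in 5.34% of those of tested genes. The list was made of genes of this pathway, so a high share could arise from how it was drawn up. Members not apart were not searched, so the count cannot set the genes apart off from the rest of the list. The C/EBP motif TTNNGCAA was in 0 of the 6 windows, AP-1 in 1 and the sterol element in 0, and the lower member held none of the 4; of the 3 acute-phase windows 1 held the NF-kappaB consensus and 2 the C/EBP motif (9.56% of all windows). The 100 bases before the start are shown for Nfkbia (chr12:55492648-55492747, minus strand) and Sod2 (chr17:13007739-13007838, plus strand), 5′ to 3′ along the gene, with the match in capitals; a match is a description of letters, not a measured binding site.
Nfkbia: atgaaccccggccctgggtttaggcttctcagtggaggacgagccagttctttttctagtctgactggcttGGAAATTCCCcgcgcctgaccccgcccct
Sod2: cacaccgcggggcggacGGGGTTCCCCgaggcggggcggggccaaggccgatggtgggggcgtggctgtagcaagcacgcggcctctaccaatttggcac

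Acute-phase and antimicrobial proteins, secreted in early defence, were higher with them, and 46.2% of the list was apart, against 7.96% of all genes. Of 13 members tested, 6 were apart and higher and 0 apart and lower, though 2 had lower means, with a median of 1.69. Without HpAF1 culture 1 or 2, 4 remained apart in each case. Saa3, a serum amyloid, read 7.19 and 8.30 in NF2, 5.71 and 7.75 in NF3, and 14.01 and 13.99 in HpAF1. Lcn2, a lipocalin that withholds iron from bacteria, read 7.83 and 9.28 in NF2, 5.50 and 8.82 in NF3, and 14.71 and 14.62 in HpAF1. The normal cultures scattered over more than the HpAF1 cultures in both genes, yet none came near HpAF1. Clu, a secreted chaperone, stood between 6.24 and 7.23 in the normal cultures and at 12.47 and 12.38 in HpAF1, and Chil1, a chitinase-like lectin, between 5.23 and 6.51 against 10.87 and 10.98. Cd14, the co-receptor for endotoxin, read 8.52 and 8.64 in HpAF1 and at most 6.94 in normal cultures. Orm1, an acute-phase plasma glycoprotein added after its values were seen, was at least 1.51-fold higher. Hp, the haemoglobin scavenger haptoglobin and also added after its values were seen, was not apart (difference -2.83, adjusted p = 0.13 against NF2).

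Saa3, Lcn2 and the NF-kappaB genes were high in some other lesion lines as well. Saa3 averaged 13.98 in both AdAF1, from adenoma, and CAF1, from carcinoma, against 5.58 in CAF2, 6.44 in CAF3 and 7.01 in CAF4. Nfkbiz averaged 10.89 in AdAF1 and 11.15 in CAF1, against 7.63 in CAF2, 7.83 in CAF3 and 7.66 in CAF4. HpAF1 differed from AdAF1 in Sod2 by 0.24 (adjusted p = 0.694) and in Tlr2 by 0.44 (adjusted p = 0.559), and from CAF1 by -0.09 (adjusted p = 0.872) and 0.09 (adjusted p = 0.902). It lay above CAF2, CAF3 and CAF4 in Saa3, Nfkbiz, Sod2 and Tlr2, each at an adjusted p under 0.05. Clu, Chil1, Icam1 and Cd14 were apart in HpAF1 from all 7 other lines; the Icam1 difference was 3.14 from AdAF1 (adjusted p = 0.00019) and 1.54 from CAF1 (adjusted p = 0.0132).

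Secreted messengers of inflammation were less uniform. Against 7.96% of all genes, 28.6% of CXC chemokines and 27.3% of interleukin and prostaglandin genes were apart. Of 7 CXC chemokines 2 were apart and higher, of 9 CC chemokines 0 were apart (1 without NF2 culture 2), and of 11 genes of interleukin-6, interleukin-1 and prostaglandins 2 were higher and 1 lower. Cxcl16 read 8.89 and 9.01 in HpAF1 against 7.99 to 8.28 in the normal cultures. Cxcl5, a neutrophil attractant, was at least 1.30-fold higher and was detected on 1 HpAF1 array. Cxcl1, another neutrophil attractant, read 10.22 and 11.98 in NF2, 11.47 and 8.78 in NF3, and 13.98 and 14.18 in HpAF1; the groups did not overlap, but the difference from NF2 of 2.98 (SE 0.96) had an adjusted p of 0.0675, so it was not apart. Ccl2, the main monocyte attractant, stood at 9.28 and 9.70 in HpAF1 and 7.20 to 8.69 in normal cultures (adjusted p = 0.209 against NF2). The CC members of smallest p over lines were Ccl9, at least 4.08-fold lower in HpAF1 but not apart, and Ccl5 (difference 0.88). Without NF2 culture 1, 0 CXC members were apart, 0 without HpAF1 culture 2 and 1 without HpAF1 culture 1.

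A pair of prostaglandin synthases was higher in HpAF1. Ptges, which makes prostaglandin E, read 8.72 and 9.50 in NF2, 9.08 and 9.11 in NF3, and 10.73 and 10.96 in HpAF1, a difference of 1.75 (adjusted p = 0.0012 against NF2 and 0.000938 against NF3). Ptgis, which makes prostacyclin, read 10.35 to 11.68 in normal cultures and 12.49 and 12.31 in HpAF1. Ptgs2, the inducible cyclooxygenase, was not detected on enough arrays to be tested, and Il6 was below detection on all 6 arrays (4.92 to 5.32). Il1rn, the receptor antagonist that blocks interleukin-1, was detected in every normal culture (10.41, 8.12, 11.17 and 10.01) and in neither HpAF1 culture (5.19 and 5.40), and was at least 10.7-fold lower. AdAF1 and CAF1 were also low in Il1rn, at 5.03 and 4.92. Among complement genes 16.7% were apart, against 7.96% of all genes. Serping1, the inhibitor of complement C1, was the 1 complement gene of 6 tested that was apart, at 13.29 and 13.06 against 9.22 to 11.72, and 0 complement genes were apart without either HpAF1 culture or without NF3 culture 1.

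Interferon and antigen presentation genes gave 1 call, 5.26% of the interferon list against 7.96% of all genes. Of 19 interferon response genes 1 was apart, Ifit2, an inhibitor of viral translation (8.92 in each HpAF1 culture against 6.91 to 7.87; 1 of its 2 probes), and the list median was -0.08; 0 were apart without either HpAF1 culture or without NF2 culture 2. Of 13 genes of MHC class I 0 were apart (median -0.03), and 1 without NF2 culture 2. Those of smallest p over lines were Tap2, a peptide transporter, at -1.18 (adjusted p = 0.0136 against NF2 and 0.0694 against NF3) and Psme2, a proteasome activator, at -0.48.

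**Figure D2:**
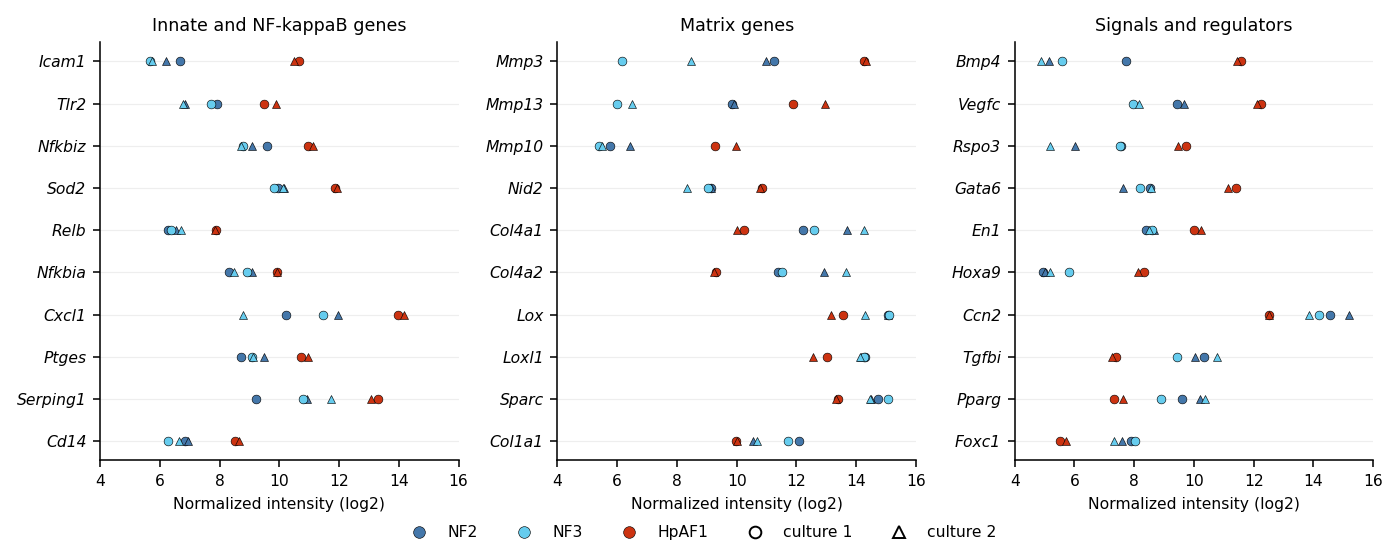
Normalized log2 intensity (horizontal axis) of 30 genes in each of the 6 cultures, with NF2 in dark blue, NF3 in light blue and HpAF1 in red, circles for culture 1 and triangles for culture 2. Red symbols lie to the right of every blue one for Icam1, Mmp3 and Bmp4 and to the left of every blue one for Col4a1, Ccn2 and Foxc1.

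Matrix metalloproteinases, which cut collagens and other matrix proteins, were apart in most cases (55.6%, against 7.96% of all genes), and mainly higher. Of 9 members, 4 were apart and higher and 1 was apart and lower (median 0.71), and 2 remained apart without HpAF1 culture 1, without HpAF1 culture 2, and without either NF2 culture. Mmp3, the stromelysin with the broadest substrate range, read 11.24 and 10.97 in NF2, 6.15 and 8.49 in NF3, and 14.25 and 14.34 in HpAF1. Mmp13, an interstitial collagenase, read 9.85 and 9.92 in NF2, 6.00 and 6.50 in NF3, and 11.88 and 12.97 in HpAF1. NF3 had the lower mean of the normal lines in both genes, a difference that did not pass (adjusted p = 0.127 in Mmp3 and 0.0907 in Mmp13). HpAF1 lay 3.19 above NF2 and 6.98 above NF3 in Mmp3, and 2.54 above NF2 and 6.18 above NF3 in Mmp13; 2 of 3 Mmp3 probes were apart. Mmp10, the other stromelysin, was detected on no normal array and stood at 9.27 and 9.96 in HpAF1, at least 9.00-fold higher. Mmp16, a membrane-bound member, was 2.19 above the normal mean. Mmp23 was apart and lower, at 7.74 and 7.95 against 9.31 to 9.96, and was also lower than in all other lines. Mmp3 averaged 13.02 in AdAF1 and 12.30 in CAF1, and HpAF1 differed from neither (limma adjusted p = 0.376 and 0.114). From AdAF1 it did not differ in Mmp10 (limma adjusted p = 0.0733) or Mmp13 (0.0861). It lay above CAF1 in Mmp10 (limma adjusted p = 0.00624) and Mmp13 (0.0168). Mmp16 was above AdAF1 (limma adjusted p = 0.0305) but did not differ from CAF1 (0.121). The constitutive Mmp2 (difference 0.71) and Mmp14 (-0.30), named after their values were seen, were not apart, and among 9 protease inhibitors and plasminogen genes 0 were.

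Mmp3, Mmp10 and Mmp13 lie in 1 gene cluster of chromosome 9 (chr9:7445822-7455975, chr9:7502342-7510242 and chr9:7272514-7283333 in GRCm38.p6). Their promoter windows are shown because each of the 3 holds an AP-1 element, TGANTCA, searched on both strands, a sequence that Fos and Jun proteins are known to bind. Of those proteins, named after their values were seen, Jun was apart and lower (7.12 and 6.72 against 8.19 to 9.67) and Fos was not apart (8.19 and 8.00 against 6.21 to 8.06). The AP-1 motif stood in 6.75% of all windows and 5.85% of those of tested genes. Mmp16 had no window here. Metalloproteinases not apart were not searched, so the 3 matches cannot be set against the rest of the list. The C/EBP motif was in 2 of the 3 windows and the NF-kappaB consensus in 0, and the window of Mmp23, the lower member, held none of the 4 motifs. The 100 bases before each start are on the plus strand, at chr9:7445722-7445821 for Mmp3, chr9:7502242-7502341 for Mmp10 and chr9:7272414-7272513 for Mmp13, with the element in capitals.
Mmp3: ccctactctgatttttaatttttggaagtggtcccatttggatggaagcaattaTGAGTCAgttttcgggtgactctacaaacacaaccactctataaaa
Mmp10: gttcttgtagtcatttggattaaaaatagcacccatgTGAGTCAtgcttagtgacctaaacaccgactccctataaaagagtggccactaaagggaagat
Mmp13: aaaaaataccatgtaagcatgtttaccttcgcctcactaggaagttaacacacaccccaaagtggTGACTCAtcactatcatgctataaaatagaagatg
The element begins 46 bases before the start in Mmp3, 63 in Mmp10 and 35 in Mmp13.

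Basement membrane genes pointed down, and 41.7% were apart, against 7.96% of all genes. Of 12 members, 10 had a lower mean in HpAF1, 4 were apart and lower and 1 was apart and higher (median -0.86); without HpAF1 culture 1 or culture 2, 0 were apart, and 1 without NF2 culture 2. Col4a1 and Col4a2, the chains of the main basement membrane collagen, are neighbours on chromosome 8 (chr8:11198423-11312889 and chr8:11312805-11449287, GRCm38.p6). Col4a1 read 12.21 and 13.71 in NF2, 12.58 and 14.25 in NF3, and 10.25 and 10.00 in HpAF1, and Col4a2 read 11.37 and 12.91, 11.50 and 13.66, and 9.31 and 9.24. In both, culture 2 of each normal line was higher than culture 1, and HpAF1 was below all 4. Col15a1, a collagen at the border of basement membranes, was detected on every normal array and on neither HpAF1 array, and was at least 4.37-fold lower. Lamb2, a laminin chain, stood at -1.06. Nid2, a nidogen that links laminin to collagen IV, was the exception, at 10.86 and 10.78 against 8.34 to 9.15. CAF1 was as low as HpAF1 in Col4a1 (10.35, difference -0.23, adjusted p = 0.831).

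Enzymes that modify and crosslink collagen were lower in HpAF1 for 13 of 18 members, with a median of -0.95. Of these enzymes 5 were apart and lower and 0 apart and higher, a share of 27.8% against 7.96% of all genes. Without HpAF1 culture 1, 2 remained apart, and 1 without culture 2. Lox, the lysyl oxidase that starts crosslinking, read 15.06 in each NF2 culture, 15.09 and 14.29 in NF3, and 13.56 and 13.15 in HpAF1. Loxl1, its relative of elastic fibres, read 14.30, 14.15, 14.25 and 14.13 in the normal cultures and 13.03 and 12.56 in HpAF1, and was also lower than in all other lines. The HpAF1 cultures were below every normal culture in both. P4ha2, a collagen prolyl hydroxylase, was lower by a difference of -1.63, and Loxl2 was at least 1.07-fold lower. The last of the 5, Plod1, a lysyl hydroxylase named after its values were seen, was at least 1.06-fold lower.

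Fibrillar collagens had lower means without being apart. In the wider list of fibrillar matrix genes 21.4% were apart, against 7.96% of all genes. Col1a1 read 12.08 and 10.56 in NF2, 11.73 and 10.69 in NF3, and 9.99 and 10.02 in HpAF1 (difference -1.26, adjusted p = 0.103 against NF2), and Col3a1 stood at 7.52 and 6.92 against 7.96 to 10.26 (adjusted p = 0.0743 against NF2). Col1a2 overlapped between the groups (difference -0.69). Of 14 genes of the fibrillar matrix, 2 were apart and lower: Sparc, a collagen-binding glycoprotein, at 13.39 and 13.33 against 14.45 to 15.06, and Col6a1, of the beaded filaments, at 13.16 and 13.03 against 14.00 to 14.54. Dcn, the small proteoglycan decorin, was apart and higher, at 10.15 and 10.23 in NF2, 11.35 and 12.36 in NF3, and 13.87 and 13.64 in HpAF1, by 1 of its 2 probes. Without HpAF1 culture 2, 0 of the 14 were apart, and 1 without culture 1 or with median scaling.

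Microfibril and proteoglycan genes split in direction. Elastic fibre genes were apart in 18.2% and proteoglycan genes in 26.3%, against 7.96% of all genes. Of 11 elastic fibre genes, Mfap4 was apart and higher (10.52 and 10.43 against 5.09 to 6.18) and Mfap5 apart and lower (9.88 and 9.78 against 11.71 to 12.23); both encode proteins bound to microfibrils, and both were apart from all other lines. Of 19 proteoglycan genes, 1 was higher and 4 lower. The higher one was Podn, a small leucine-rich proteoglycan (difference 1.80). The lower ones were Chst1, which sulfates keratan sulfate (at least 5.08-fold lower), the syndecans Sdc2 (-1.14) and Sdc3 (-1.49), which carry heparan sulfate at the cell surface, and Ecm1 (-1.21). Without HpAF1 culture 1, 2 of the 19 were apart, 1 without HpAF1 culture 2, and 3 without NF2 culture 2 or NF3 culture 1.

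**Figure D3:**
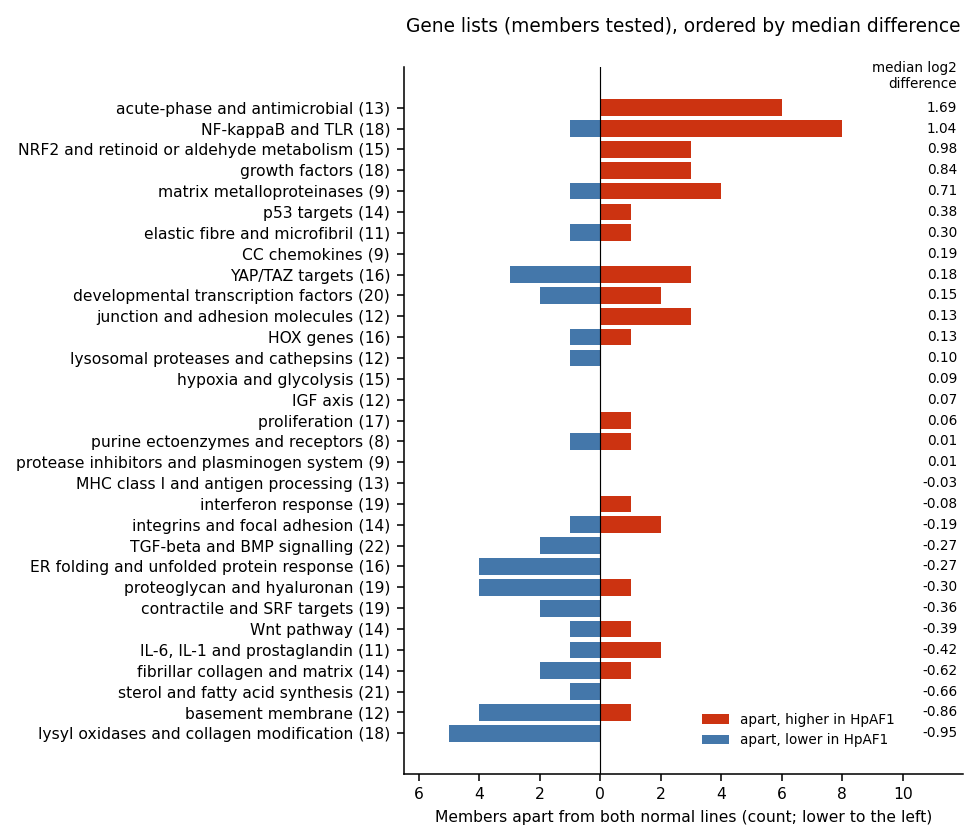
Counts of members apart from both normal lines for the 31 gene lists with at least 8 members tested, with the number of members tested in brackets, higher to the right in red and lower to the left in blue, ordered by the median difference printed at the right. The acute-phase list stands at the top with a median of 1.69 and the collagen modification list at the bottom with -0.95.

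Cytoskeletal and adhesion genes were apart in small numbers. The share was 10.5% of contractile genes, near the 7.96% of all genes. It was 21.4% of integrin and focal adhesion genes and 25% of junction genes. The junction genes apart were all detected on both HpAF1 arrays and on no normal array. Detection on 2 arrays was enough to enter the test, so the junction share is partly set by the filter. Of 19 genes of contraction or under serum response factor, 16 had a lower mean and 2 were apart and lower (median -0.36). Mylk, the kinase that activates myosin, was at least 6.94-fold lower, with 9.11 and 9.01 in NF2, 10.14 and 8.95 in NF3 and no detection in HpAF1. Myl6, a myosin light chain, was at 11.87 and 12.05 against 12.52 to 13.27. Acta2, the smooth muscle actin that marks myofibroblasts, read 15.19 and 15.33 in NF2, 15.71 and 14.00 in NF3, and 14.49 and 14.60 in HpAF1; the groups overlapped. Without NF3 culture 2, 7 contractile genes were apart, without any 1 of the other 5 cultures 1 was, and 4 with the authors' normalized values or with median scaling.

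Targets of YAP and TAZ, co-activators that respond to matrix tension, were apart in both directions, 3 of 16 higher and 3 lower. Together these made 37.5% of the list, against 7.96% of all genes. Ccn2, a matrix-associated growth regulator, read 14.56 and 15.19 in NF2, 14.20 and 13.86 in NF3, and 12.53 and 12.52 in HpAF1, and was lower than in all 7 other lines (adjusted p between 7.83e-06 and 0.00194). Nuak2, a kinase, was at -1.93, and Fjx1 was at least 1.36-fold lower. Nt5e, the ectoenzyme CD73, was higher, at 11.54 and 11.22 against 6.06 to 6.79, as were Ptpn14 (difference 1.81) and Wwc1 (at least 1.05-fold), both of which restrain YAP. Ccn1 (difference -0.03) and Ankrd1 (1.25, with NF3 culture 2 at 6.46 and the other normal cultures at 10.17 to 10.64) overlapped. Without HpAF1 culture 1, 3 YAP/TAZ members were apart, 2 without HpAF1 culture 2 and 3 without NF2 culture 2.

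Of 14 integrin and focal adhesion genes, the integrin chains Itga3 (8.79 and 8.85 against 7.08 to 8.00) and Itgav (8.76 and 8.92 against 6.53 to 7.79) were apart and higher, and Efs, a docking protein of Src kinases, was at least 6.63-fold lower. Of 12 junction genes 3 were apart and higher, all detected on no normal array: Cadm1, Cxadr and Cdh3. Cdh3, the P-cadherin of basal epithelium, was at least 1.78-fold higher, at 7.57 and 6.99. Cadm1 and Cxadr were apart from all other lines, and none of the other 5 lesion lines averaged above 5.06 in either gene; NF2 averaged 5.88 in Cadm1. Without either HpAF1 culture, 1 integrin and focal adhesion gene was apart, and likewise without NF2 culture 2.

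Among secreted growth factors, 15 of 18 had a higher mean (median 0.84), 3 were apart and higher, and the same count held without either HpAF1 culture. The 3 growth factors apart made 16.7% of the list, against 7.96% of all genes. Bmp4, a morphogen, read 7.71 and 5.16 in NF2, 5.57 and 4.87 in NF3, and 11.58 and 11.45 in HpAF1, apart from all other lines. Vegfc, the growth factor of lymphatic vessels, read 9.42 and 9.67 in NF2, 7.96 and 8.16 in NF3, and 12.24 and 12.12 in HpAF1, also apart from all other lines. Mdk, midkine, was at 13.94 and 14.15 against 7.50 to 10.16, with all 3 probes apart; CAF1 was also high at 12.80 (adjusted p = 0.254 between HpAF1 and CAF1). The TGF-beta and BMP pathway had 2 of 22 members apart (9.09%, near the 7.96% of all genes), both lower. They were Tgfbi, an adhesion protein induced by TGF-beta, at 7.40 and 7.25 against 9.45 to 10.77, and Tgfb2, a ligand, at least 1.33-fold lower. In the Wnt pathway, 2 of 14 were apart (14.3%). Rspo3, a secreted amplifier of Wnt signals, read 7.55 and 6.00 in NF2, 7.51 and 5.19 in NF3, and 9.72 and 9.48 in HpAF1, which also passed over lines (3.03, SE 0.31, adjusted p = 0.0206, but not with detection on at least 4 arrays, where 0 probes passed), and Fzd2, a receptor, was lower (7.18 and 7.54 against 8.08 to 8.72). Without either HpAF1 culture, or without NF2 culture 2, 0 Wnt genes were apart, and 1 without NF2 culture 1; of the TGF-beta and BMP genes 1 was apart without either HpAF1 culture, either NF2 culture or NF3 culture 2. Of 12 genes of the IGF axis 0 were apart; Igfbp6 stood at -2.10 (adjusted p = 0.0561 against NF3) and Igfbp3 at 2.06 (adjusted p = 0.141 against NF2). Without NF2 culture 1, 2 IGF genes were apart, and 1 without either NF3 culture.

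Transcription factors of lineage and position were apart in single genes. These made 20% of developmental factors and 12.5% of HOX genes, against 7.96% of all genes. Of 20 developmental factors, 2 were higher and 2 lower, and 4 were apart without either HpAF1 culture. Gata6, a factor of mesodermal and endodermal lineages, read 8.53 and 7.62 in NF2, 8.19 and 8.56 in NF3, and 11.41 and 11.15 in HpAF1. En1, engrailed, which marks a lineage of dorsal dermal fibroblasts in the mouse, read 8.38, 8.66, 8.59 and 8.48 in the normal cultures and 10.00 and 10.24 in HpAF1. Both were apart from all 7 other lines, as was Foxc1, a mesenchymal forkhead factor that was at least 2.29-fold lower. Sox9, a factor of cartilage and ductal progenitors, was at least 1.33-fold lower. Of 16 HOX genes, Hoxa9 (chr6:52223097-52227370) was detected in HpAF1 alone of these 3 lines (8.32 and 8.13, at least 3.43-fold higher), with CAF4 at 7.01, and Hoxc9 was lower (9.48 and 9.58 against 10.17 to 10.48). Without either HpAF1 culture, NF2 culture 1 or NF3 culture 2, 1 HOX gene was apart.

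Metabolic and stress lists varied in the share of genes apart, against 7.96% of all genes. It was 4.76% for sterol and fatty acid synthesis, 25% for protein folding, 20% for oxidative stress and aldehyde genes and 25% for purine genes. Of 21 genes of sterol and fatty acid synthesis, 19 had a lower mean (median -0.66) but 1 was apart, Srebf1, the factor that drives fatty acid synthesis (5.45 and 4.94 against 6.22 to 6.63, detected on 1 normal array), with 0 apart without HpAF1 culture 2 or NF3 culture 2 and 2 without NF3 culture 1. Hmgcs1, the first committed step of sterol synthesis, read 12.40 and 13.20 in NF2, 12.35 and 13.45 in NF3, and 11.36 and 11.61 in HpAF1 (adjusted p = 0.103 against NF2). Of 16 genes of protein folding in the endoplasmic reticulum, 4 were apart and lower: Xbp1, the factor of the unfolded protein response (10.24 and 10.19 against 11.18 to 11.69), Kdelr3 (-2.03), Dnajc3 (-0.83) and Pdia6 (at least 2.17-fold lower). Without HpAF1 culture 1, 2 of these 16 were apart, 2 without NF3 culture 1, and 1 without HpAF1 culture 2. Of 15 genes of the oxidative stress factor NRF2 and of aldehyde and retinoid metabolism, 3 were apart and higher (median 0.98), with 0 apart without HpAF1 culture 1, HpAF1 culture 2 or NF2 culture 1, and 1 without NF3 culture 1. They were Aldh3a1, an aldehyde dehydrogenase (12.04 and 11.89 against 7.22 to 10.53), Slc7a11, the cystine importer (8.28 and 8.07 against 5.20 to 6.40), and Crabp2, a retinoic acid carrier detected on 1 HpAF1 array. Of 8 purine genes, Nt5e was higher and Slc29a1, a nucleoside transporter, lower (7.48 and 7.98 against 9.42 to 10.09).

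Growth and survival genes gave few calls, 5.88% of proliferation genes and 7.14% of p53 targets, against 7.96% of all genes. Of 17 proliferation genes 1 was apart, Mcm2, a subunit of the replicative helicase (9.48 and 9.63 against 7.91 to 8.35), and Mki67 has no probe under its name. Of 14 p53 targets 1 was apart, Fas, a death receptor (11.15 and 11.13 against 8.97 to 9.94). Both lists had 0 genes apart without either HpAF1 culture or NF3 culture 2, proliferation also without NF2 culture 1 and p53 also without NF2 culture 2. Cdkn1a, the p21 inhibitor, differed by -0.09 and Mdm2, the p53 ligase, by 0.81 (adjusted p = 0.217 against NF2); E6, which directs p53 to degradation, is shared by all lines. Of 15 genes of hypoxia and glycolysis 0 were apart, (1 without NF2 culture 1 or NF3 culture 1, 2 without NF3 culture 2 or with median scaling, 3 with the authors' normalized values), and Egln3 (1.70) and Hk2 (1.21) had the smallest p over lines. Among 12 lysosomal proteases Ctsh alone was apart (8.33%, near the share of all genes), at 8.08 and 7.60 against 10.07 to 11.06.

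**Figure D4:**
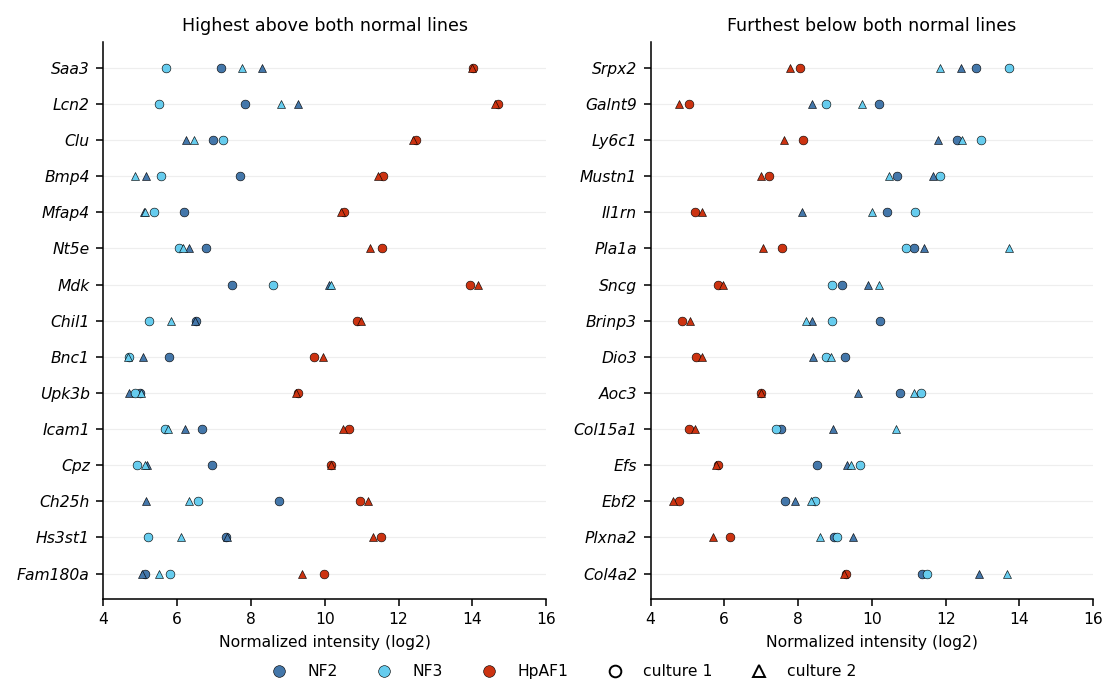
Normalized log2 intensity (horizontal axis) in each of the 6 cultures for the 15 genes furthest above both normal lines (left) and the 15 furthest below them (right), with NF2 in dark blue, NF3 in light blue and HpAF1 in red, circles for culture 1 and triangles for culture 2. The genes were chosen for this distance, so the HpAF1 cultures lie outside the range of the 4 normal cultures by construction; over all tested genes 19.8% lay above that range and 20.2% below it.

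Outside these groups, the genes furthest from the nearer normal line included enzymes and regulators of varied function. Ch25h, which makes 25-hydroxycholesterol, read 8.75 and 5.15 in NF2, 6.56 and 6.31 in NF3, and 10.95 and 11.17 in HpAF1. Hs3st1, a heparan sulfate sulfotransferase, stood at 11.52 and 11.32 against 5.20 to 7.34, and Cpz, a carboxypeptidase that binds Wnt proteins, at 10.18 and 10.16 against 4.92 to 6.95. Chosen for their distance, all 3 had HpAF1 above every normal culture; Hs3st1 and Cpz were apart from all other lines too. Fam180a was at least 9.42-fold higher. On the lower side, Aoc3, an amine oxidase of the cell surface, read 10.76, 9.62, 11.34 and 11.13 in normal cultures and 7.00 and 6.98 in HpAF1. Dio3, which inactivates thyroid hormone, was at least 5.01-fold lower, Plxna2, a semaphorin receptor, at least 5.73-fold, and Ebf2, a factor of adipocyte precursors, at least 2.99-fold lower. Csrp2, a LIM protein of muscle and fibroblasts, was at 9.07 and 8.98 against 11.33 to 12.20. Galnt9 was below detection in HpAF1 but also in AdAF1, CAF1, CAF2 and CAF3 (4.74 to 5.69), with NF2, NF3 and CAF4 high. Aoc3, Dio3 and Csrp2 were lower than in all 7 other lines, whereas HpAF1 did not differ from CAF1 in Plxna2 (0.47, adjusted p = 0.427) or from CAF3 in Ebf2 (-0.14, adjusted p = 0.733).

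Compared with every other line, 190 genes (2.55%) set HpAF1 apart, 109 higher (1.46%) and 81 lower (1.09%). Genes detected on the HpAF1 arrays alone entered the test through HpAF1, so the higher count is partly set by the filter. With detection on at least 4 arrays, 225 probes were apart from all other lines, in place of 253. On cultures, HpAF1 differed from AdAF1 in 586 genes (7.86%), from NF2 in 928 (12.4%), from NF3 in 954 (12.8%), from CAF1 in 978 (13.1%), from CAF3 in 1166 (15.6%), from CAF4 in 1389 (18.6%) and from CAF2 in 1791 (24.0%). The counts share the HpAF1 cultures and were not tested against each other. The 253 probes (2.42%) apart from all other lines became 99 without HpAF1 culture 1 and 93 without culture 2.

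The fibroblast label was checked against its markers. Of 14 markers on the array, 11 were detected in both HpAF1 cultures and 10 in all normal cultures. The list was summed as normalized intensity, on a linear scale with the offset included. The sum was 37750 to 42130 in HpAF1 and 33550 to 40380 in normal cultures. Dcn was the largest term of both HpAF1 sums (log2 13.87 and 13.64, against 10.15 to 12.36), and no sum without it was made. Of 12 markers tested, 9 had a lower mean in HpAF1 and 3 a higher one (median -0.69). Thy1 read 12.65 and 12.60 against 12.43 to 13.05 and Pdgfra 11.11 and 11.19 against 10.95 to 12.14, both overlapping. Fap and Postn, used as markers of activated fibroblasts, were detected on none of the 6 arrays. Vim, the intermediate filament of mesenchymal cells, was apart and lower (12.14 and 12.01 against 12.94 to 13.61). So was S100a4 (6.54 and 6.96 against 8.09 to 8.83). With Dcn, 3 fibroblast markers were apart of 12 tested (25%, against 7.96% of all genes). That count was 1 without HpAF1 culture 1 and 0 without culture 2. Pdgfrb was at -0.88 (adjusted p = 0.116 against NF2). The adipocyte factors Pparg, by 1 of its 2 probes (7.34 and 7.62 against 8.91 to 10.38), and Cebpa (not detected in HpAF1) were apart and lower, but 0 of the adipocyte list were without HpAF1 culture 1 and 1 without HpAF1 culture 2 or NF2 culture 1.

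Markers of other cell types were mostly silent. None of 14 luminal epithelial markers was detected on any of the 6 arrays, and the summed list was 428 to 444 in HpAF1 and 426 to 450 in normal cultures. The basal keratins Krt5 and Krt14, the leukocyte antigen Ptprc and the endothelial Pecam1 and Cdh5 were likewise not detected. Cd14 was the 1 leukocyte marker of 12 detected in both HpAF1 cultures (summed list 705 to 734 against 438 to 509), Mbp the 1 Schwann cell marker of 4 (7.85 and 7.55 against 5.16 to 6.13) and Egfl7 the 1 endothelial marker apart (9.75 and 9.66 against 7.71 to 9.11). The endothelial list summed to 1363 to 1393 in HpAF1 and 657 to 1067 in normal cultures. Egfl7 was the largest term of the HpAF1 sums, and no sum without it was made. Tek, another endothelial marker detected on all 4 normal arrays, went the other way (6.36 and 6.52 against 6.71 to 7.33). Upk3b is a mesothelial marker that was detected on both HpAF1 arrays and on no normal array. It passed over lines, but among probes detected on at least 4 arrays 0 passed. Upk3b (9.29 and 9.21 against 4.70 to 5.03) and Bnc1 (9.70 and 9.96 against 4.67 to 5.78, at least 10.4-fold higher, with 8.84 in AdAF1 and 8.67 in CAF1) were apart. Wt1 read 8.19 and 7.70 in HpAF1 and 8.14, 5.12, 5.89 and 5.33 in normal cultures and was not apart. The defining markers Msln and Lrrn4 and the keratins Krt8, Krt18 and Krt19 were not detected; 16 of 21 mesothelial markers were silent in HpAF1, and the list summed to 3498 and 3501 in HpAF1 and to 3777 to 9086 in normal cultures. That direction rests on Igfbp6: without it, an alternative chosen after seeing the data, the other 20 markers summed to 2469 and 2496 in HpAF1 and to 875.8 to 1065 in normal cultures. Of those 20 markers, Upk3b and Bnc1 were the largest terms of the HpAF1 sums, and no sum without them was made. The part of mesothelial cells in these results was not tested. In a bulk culture, fewer cells of a type and less RNA per cell cannot be told apart.

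The genes apart were not spread evenly over chromosomes. On chromosome 6, 67 of 383 tested genes were apart and higher (17.5%, against 4.35% of all genes) and 6 were lower, and on chromosome 18, 28 of 172 were higher (16.3%) and 3 lower. Chromosome 13 had the largest share of lower genes, 29 of 257 (11.3%, against 3.61%), followed by chromosome 11 with 43 of 645 (6.67%) and chromosome 15 with 20 of 324 (6.17%). The median difference of a whole chromosome moved the same way: 0.51 on chromosome 6 and 0.36 on chromosome 18, and -0.31 on chromosome 10, -0.30 on 13, -0.25 on 15 and -0.21 on 11. On chromosome 6 the median was 0.51 against NF2 and 0.54 against NF3, while NF3 differed from NF2 there by -0.01. The same median over the normal mean lay between -0.105 and 0.0593 in the other 5 lesion lines. On chromosome 18 these lines lay between -0.03 and -0.02 in AdAF1, CAF1 and CAF4, at -0.05 in CAF2 and at -0.55 in CAF3. On chromosome 13 they lay at -0.36 in CAF3 and between -0.14 and 0.09 in AdAF1, CAF1, CAF2 and CAF4. The chromosome 10 median of HpAF1 was -0.18 against NF2 and -0.41 against NF3, and NF3 differed from NF2 there by 0.25. No test was made of these shares, and genes of a chromosome are not independent. Chromosomes are those of RefSeq GRCm38.p6, as no label names a build for the array. Among the genes described above, Mcm2, Hoxa9, Fam180a, Ppp1r9a and Hk2 lie on chromosome 6 and Gata6, Cd14 and Mbp on chromosome 18, all with higher values in HpAF1, but so do Pparg, Mfap5 and Col1a2 on 6 and Lox and Pdgfrb on 18, with lower ones. Foxc1, Tgfbi and Hmgcs1, with lower values, lie on chromosome 13.

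**Figure D5:**
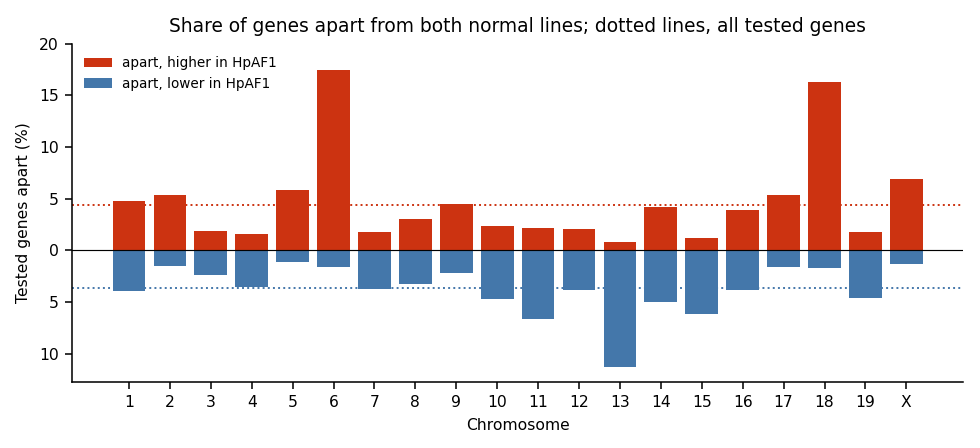
Share of the tested genes of each chromosome that were apart from both normal lines, in percent, with genes higher in HpAF1 upwards in red and genes lower in HpAF1 downwards in blue. Dotted lines mark the shares over all tested genes, 4.35% and 3.61%. Chromosomes 6 (17.5%) and 18 (16.3%) stand out upwards and chromosome 13 (11.3%) downwards.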

How the data were processed

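RNA of 16 cultures (8 lines, 2 cultures each) was measured on Illumina bead arrays, and the 6 arrays of HpAF1, NF2 and NF3 were compared. The authors deposited a table of probe intensities before normalization, on a linear scale, with a detection p-value for each probe and array; per the file headers these are bead-array signals, and the detection p-values move in steps of 0.00125. The authors also deposited a table of normalized intensities, used as an alternative. Background correction and quantile normalization were done here with neqc (offset 16) in limma 3.58.1 under R 4.3.3, which took the background from the detection p-values, and values are log2. Of 25697 probes, 10453 were detected (p under 0.01) on at least 2 of 16 arrays and were tested; 23978 probes had a gene symbol in the platform annotation, 1719 had none and 0 had several. Each of 7454 genes is shown by its probe of highest mean.

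Over lines, cultures were averaged and HpAF1 was compared with the mean of NF2 and NF3 in a limma fit of all 8 lines with 1 mean per stage (4 residual degrees of freedom). Over cultures, each line had its own mean in a fit of all 16 arrays (8 residual degrees of freedom). All tests were two-sided with Benjamini-Hochberg adjustment over all tested probes. Limma was tested on simulated data. Named were, per direction, the 15 genes apart with the largest distance to whichever normal line was closer, up to 10 per direction that passed over lines, up to 4 per list and direction that were apart (or 2 of smallest p), the 5 per direction furthest from all other lines and 37 fixed genes; any other is stated as named after its values were seen. The members and lists were chosen with earlier results of these data known. Promoters and chromosomes come from RefSeq GRCm38.p6. The number of arrays limits the precision. Alternatives were the authors' values, median scaling, other detection filters, the mean of a gene's probes, each culture or line left out, replicate and line blocks, and fits of the 3 lines alone.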

Additional observations from a re-analysis of the deposited data

Results flagged for a closer look

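Among 42 genes examined for a culture far from the other normal cultures, 3 had 1; chance gives such a value in about 1 of 20 groups. In Cpz, NF2 culture 1 read 6.948, with the nearest normal culture at 5.172. In Cxadr, NF2 culture 2 read 4.956, with the nearest at 4.698, all below detection. In Pla1a, a phospholipase, NF3 culture 2 read 13.71, with the nearest at 11.4.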

How the results depend on the processing

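The count over lines moved with the model, the filter and the lines in the fit. The 34 probes became 258 with HpAF1, NF2 and NF3 alone, 256 with line as a random block, 217 with that and the replicate block, and 780 with arrays taken as independent. They became 52 with no detection filter, 0 with detection on at least 4 arrays and 21 with the mean of a gene's probes. Leaving out a line gave 3 (NF2), 0 (NF3), 82 (CAF1), 13 (CAF3) and 16 (CAF4), and leaving out 1 culture gave 25 to 35. The 804 probes apart from both normal lines became 235 in the 3 lines alone (229 of them among the 804), 1263 at an adjusted p under 0.10, 528 with a difference of at least 1, and 253 to 870 without 1 culture. The 253 apart from all lines ranged from 93 to 305 without 1 culture, and the 15 between NF3 and NF2 from 8 to 158, with 0 in the 3 lines alone. Cultures of the same number are paired by no label. The differences between cultures correlated at 0.236 between NF2 and NF3, 0.087 between NF2 and HpAF1 and 0.0325 between NF3 and HpAF1. Over all pairs of the 8 lines in the fit they ran from -0.202 (AdAF1 and CAF3) to 0.653 (CAF2 and CAF4). For NF3 with CAF3 the value was 0.448. A shared culture round was not tested. A replicate block gave 995, 293 and 14 probes in place of 804, 253 and 15. Of the 111 named genes apart, none reversed in 1320 values, of which 269 no longer passed. Of the 31 not apart, 6 genes changed sign: Cdkn1a at 0.1825 with the mean of its probes, Tnnt1 at 0.02133 with the authors' values, and, without 1 culture, Tnnt1 from -0.154 to 0.1201, Anpep from -1.027 to 0.296, Ccn1 from -0.4974 to 0.4399, Cldn7 from -0.2136 to 0.5388 and Thy1 from -0.2552 to 0.05507. The cause of these shifts was not tested. Genes near detection have only bounds.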

Other observations

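Of the 588 tested probes with no gene name in the annotation used here, 48 were apart from both normal lines (8.16%, against 7.69% of all tested probes). ILMN_3136638 read 4.90 to 5.33 in the normal cultures and 10.89 and 10.87 in HpAF1, at least 21.6-fold higher, with 7.89 in CAF1. ILMN_3161601 read 4.64 to 5.00 in the normal cultures and 9.51 and 9.45 in HpAF1, at least 8.16-fold higher.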
